A study of Homo sapiens with 18 samples.

Results

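A set of 10 genes that restrain MAP kinase signalling was examined in IMR90 cells: the phosphatase genes DUSP1, DUSP4, DUSP5, DUSP6, DUSP10 and DUSP14, the Sprouty genes SPRY2 and SPRY4, and the Spred genes SPRED1 and SPRED2. They were chosen by name, as known feedback inhibitors of these cascades, with earlier results of these data known. All 10 had a row among the 56269 genes of the deposited table. The study asked whether the polymer length of hyaluronan (HA) from naked mole-rat skin fibroblasts (NSF) changes how human cells respond to an oxidant. IMR90 cells are primary human lung fibroblasts, and their polyadenylated RNA was sequenced in 18 libraries, 3 replicates in each of 6 groups. The pre-incubation lasted 6 h, with PBS, with 20 μg/ml of cNSF-HA (control HA from NSF, of very high molecular mass) or with 20 μg/ml of fNSF-HA (the same HA partly fragmented with hyaluronidase). Of each pre-incubation, 3 libraries came from cells without tBHP (tert-butyl hydroperoxide, an oxidant) and 3 from cells given 200 μM of it, over 1 h, once the HA or PBS had been removed. All cells were of this 1 strain and grew in medium with 15% fetal bovine serum. The study's methods call its replicates biological, and the labels do not say how the cultures were separated, so p-values measure the spread between these libraries. Cells without tBHP were collected at the end of the pre-incubation and cells with tBHP 6 h after the start of the exposure, so the oxidant, the later collection and the change of medium cannot be told apart.

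MAP kinases are switched on by phosphorylation of a threonine and a tyrosine, and the dual-specificity phosphatases (DUSP) remove both phosphates. Many DUSP, SPRY and SPRED genes are themselves transcribed in response to ERK, JNK or p38 activity, so that the cascade raises its own inhibitors. Sprouty proteins act between receptor tyrosine kinases and RAS or RAF, whereas Spred proteins bind neurofibromin and bring this RAS inactivator to the membrane.

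The libraries held 20261103 to 26287660 reads counted on genes, and values are given as normalized counts, reads scaled by the authors with 1 DESeq2 size factor per library. Of the 56269 genes, 13686 had a mean normalized count of at least 10 and were tested with limma, and all 10 members were among them. All 9 fibroblast markers examined (COL1A1, COL1A2, COL3A1, VIM, THY1, PDGFRB, DCN, LUM and S100A4) were present, with a summed normalized count of 589100 to 611000 without tBHP and 452100 to 718000 with tBHP. Of the 9, PDGFRB rose and LUM and COL3A1 fell in all 3 tBHP responses (mean log2 differences 0.47, -1.06 and -0.41). LUM was the 1 marker called between pre-incubations, higher after fNSF-HA than after PBS with tBHP (0.60, adjusted p = 0.0261), a call that passed in 15 of 30 alternative settings. For LUM it was lost with only the groups compared (adjusted p = 0.657), with the GC and length trend of the libraries removed (0.32, adjusted p = 0.168), and without any 1 of the cNSF-HA or fNSF-HA libraries that had no tBHP, replicate 1 or 3 of PBS with or without tBHP, or fNSF-HA + tBHP replicate 1 or 2 (adjusted p = 0.0516 to 0.171). KRT5 and CDH5, markers of epithelium and endothelium, were at 0 in every library, and EPCAM, CDH1, PECAM1 and PTPRC did not exceed 5.47. The epithelial sum, almost wholly KRT18 and KRT19, was 1759 to 1976 without and 1002 to 1726 with tBHP, without overlap. KRT18 was called lower in PBS and fNSF-HA cells (-0.50 and -0.56) and KRT19 in fNSF-HA cells (-0.60), the calls of KRT18 passing in 30 of 30 settings and that of KRT19 in 20. The endothelial sum was 6.52 to 14.8 without and 13.1 to 25.1 with tBHP. VWF, the 1 endothelial marker tested, was called higher in PBS cells (1.32, adjusted p = 0.00982) and fNSF-HA cells (1.18, adjusted p = 0.0225), with 0.72 in cNSF-HA cells (adjusted p = 0.139), and the calls of VWF passed in 28 and 23 of 29 settings that tested it. The leukocyte sum was 1.97 to 5.87 without and 2.19 to 12.5 with tBHP, and the part of these markers in the results was not tested. The oxidant targets HMOX1 (heme oxygenase) and GCLM (a subunit of the enzyme that makes the glutathione precursor) rose in all 3 pre-incubations, HMOX1 by 2.96, 2.91 and 2.78 and GCLM by 0.96, 0.94 and 1.16 on the log2 scale in PBS, cNSF-HA and fNSF-HA cells. SRXN1, which repairs oxidized peroxiredoxins, rose by 2.35 in PBS cells and 0.86 in fNSF-HA cells, with 0.67 in cNSF-HA cells (adjusted p = 0.0546).

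After tBHP, 6 of the 10 members rose in PBS cells: SPRY4, DUSP5, DUSP6, SPRED2, DUSP1 and SPRY2. SPRED1 fell, and DUSP4, DUSP10 and DUSP14 did not pass the threshold. Among all genes tested in PBS cells, 24.2% were called higher and 26.9% lower. After cNSF-HA, 6 members were again called higher and 1 lower, beside 24% and 26.8% of all genes. After fNSF-HA the counts were 6 and 1, beside 19.2% and 22.7% of all genes. The same 6 genes rose in all 3 responses, as did 14.6% of the genes tested (1992 of 13686), and SPRED1 was lower in all 3, as were 17.9% (2447). With the GC and length trend of the libraries removed, SPRED1 was no longer called in PBS and cNSF-HA cells (-0.086 and -0.011). The median log2 difference of the 10 members was 0.46 in PBS, 0.42 in cNSF-HA and 0.47 in fNSF-HA cells, against medians of 0.0043, -0.00053 and -0.034 over all genes tested. The 3 responses were measured in separate libraries. All differences are on the scale of log2(normalized count + 1), which understates changes of genes with low values, chiefly DUSP4. In bulk RNA, fewer cells with a transcript and less transcript per cell cannot be told apart.

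**Figure D1:**
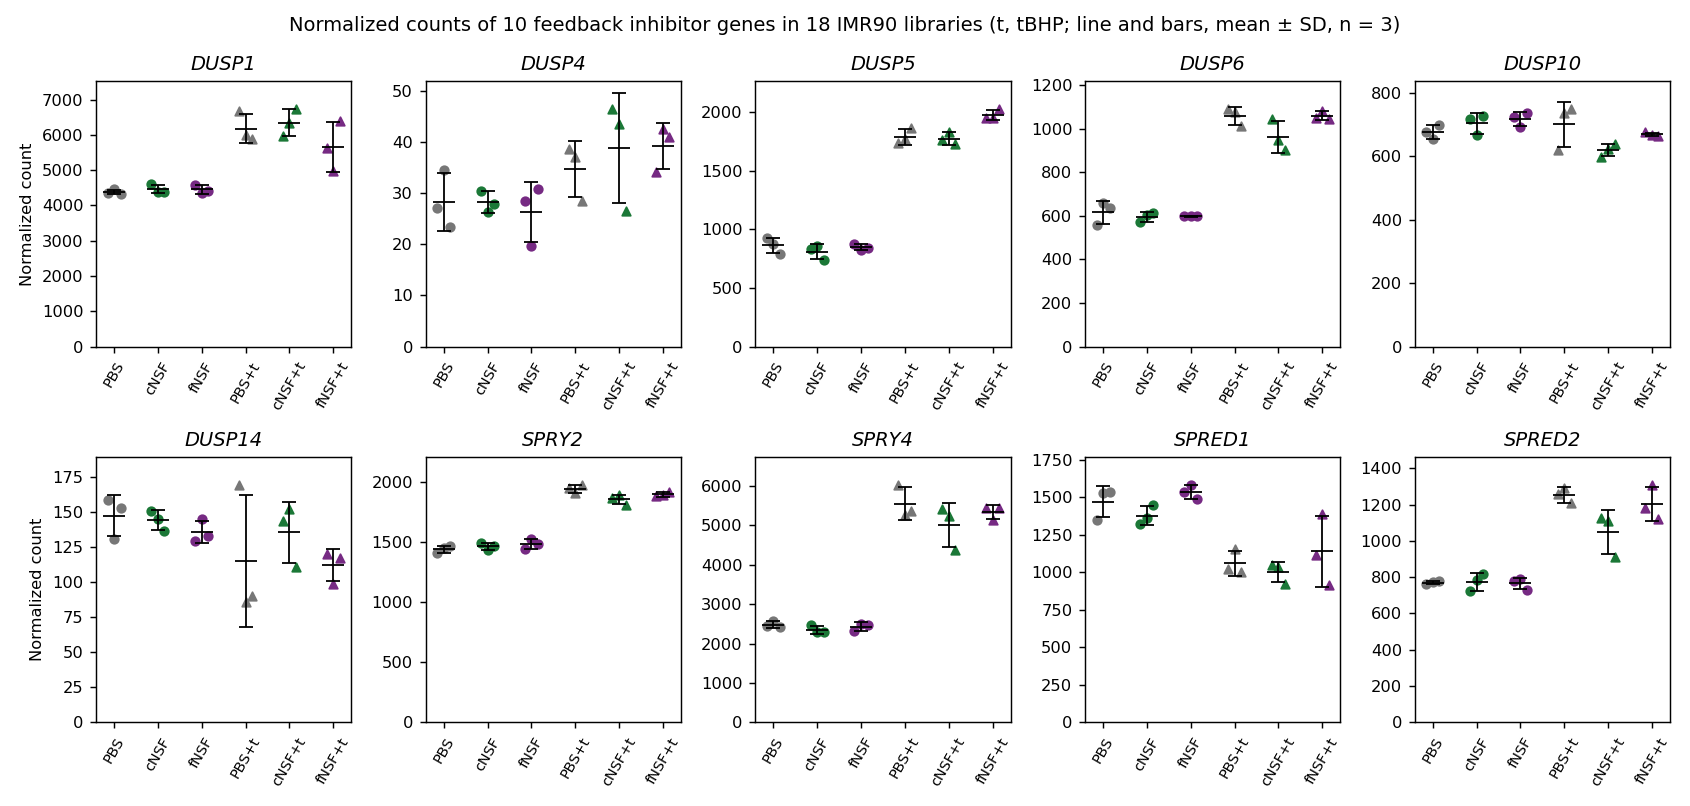
Normalized counts of the 10 genes in the 18 libraries, 1 panel per gene with its own vertical axis starting at 0; circles are libraries without and triangles libraries with tBHP (t), and lines with bars are the mean ± SD of 3 replicates. In SPRY4, DUSP5, DUSP6, SPRED2, DUSP1 and SPRY2 the triangles lie above the circles, and the means of SPRY4 go from 2481 to 5555 in PBS cells.

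**Figure D2:**
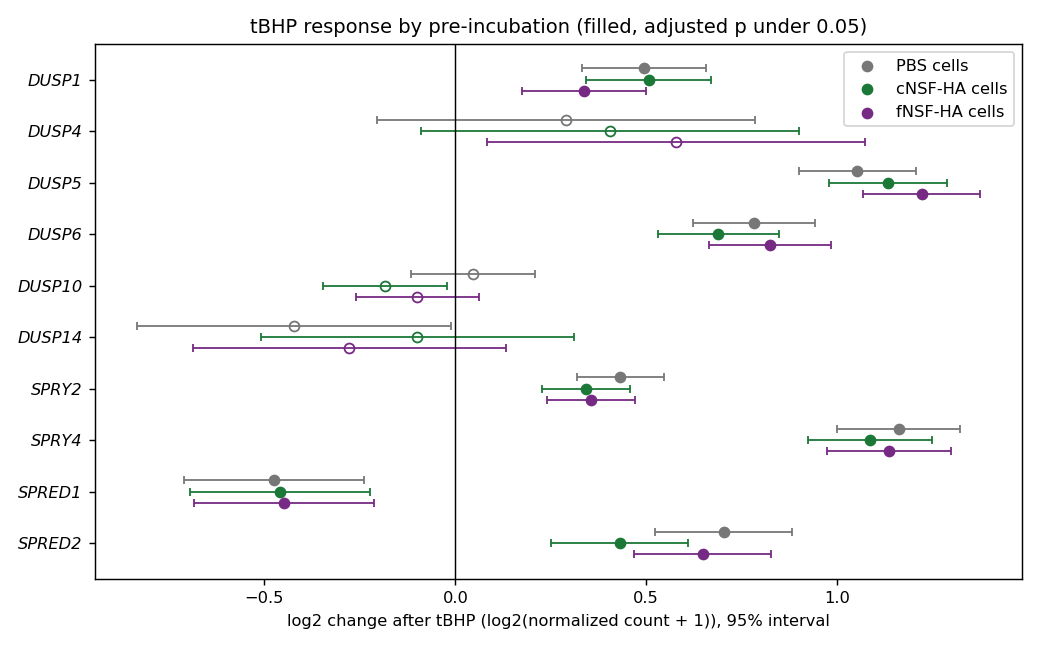
Difference between cells with and without tBHP for each gene and pre-incubation, as log2(normalized count + 1) with its 95% confidence interval; filled points had an adjusted p under 0.05. The same 6 genes lie to the right of 0 and SPRED1 to the left in all 3 pre-incubations, and the intervals of DUSP4 and DUSP14 are the widest.

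DUSP5 and DUSP6, phosphatases with a preference for ERK that act in the nucleus and in the cytoplasm, both rose. DUSP5 (chr10:110497838-110511544, plus strand, GRCh38) stood at 924, 874 and 792 normalized counts after PBS, 837, 856 and 736 after cNSF-HA and 874, 823 and 841 after fNSF-HA, all without tBHP. With tBHP it stood at 1734, 1768 and 1867 after PBS, 1760, 1834 and 1726 after cNSF-HA and 1947, 1951 and 2023 after fNSF-HA. Every library with tBHP was above every library without, and the highest 3 were those pre-incubated with fNSF-HA. The log2 difference was 1.05 (SE 0.073, limma adjusted p = 3.01e-09) in PBS cells, a 2.07-fold rise. After cNSF-HA it was 1.13 (adjusted p = 1.28e-09) and after fNSF-HA 1.22 (adjusted p = 4.85e-10), which lay above 97.4% and 98% of the genes tested. The replicates of DUSP5 varied less with tBHP (log2 SD 0.045) than without (0.097), whereas the median SD of all genes went from 0.076 to 0.21.

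DUSP6 (chr12:89347232-89353271, minus strand) had 558, 657 and 635 normalized counts in PBS cells and 1088, 1075 and 1013 with tBHP. In cNSF-HA cells it had 571, 605 and 614 without and 1044, 947 and 901 with tBHP, and in fNSF-HA cells 599, 597 and 597 without and 1051, 1082 and 1044 with tBHP. The ranges did not overlap in any pre-incubation, and the cNSF-HA libraries with tBHP included the lowest of the 9. DUSP6 rose by 0.78 (SE 0.076, adjusted p = 1.9e-07), 0.69 (adjusted p = 9.53e-07) and 0.82 (adjusted p = 1.14e-07) in PBS, cNSF-HA and fNSF-HA cells. The span of an antisense gene, AC024909.2, overlaps that of DUSP6 in GENCODE. The library kit does not record strand, so reads from any exon sequence the pair shares cannot be told apart. Whether exons overlap was not examined for this gene or the others with an antisense gene.

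DUSP4, a nuclear phosphatase related to DUSP1, was at the lowest level of the 10. It had 27.0, 34.5 and 23.4 normalized counts in PBS cells and 38.6, 37.0 and 28.5 with tBHP, so that the groups overlapped. In cNSF-HA cells the values were 30.5, 26.4 and 27.9 without and 46.4, 43.6 and 26.4 with tBHP, and in fNSF-HA cells 28.4, 19.7 and 30.8 without and 34.2, 42.6 and 41.0 with tBHP. Only the fNSF-HA groups did not overlap. The log2 differences were 0.29 (adjusted p = 0.32), 0.41 (adjusted p = 0.162) and 0.58 (95% interval 0.082 to 1.07, adjusted p = 0.0576). The difference in fNSF-HA cells passed the threshold with TMM scaling (0.64, adjusted p = 0.039) and with edgeR (0.62, adjusted p = 0.0435). The difference in cNSF-HA cells passed it without cNSF + tBHP replicate 3, the library at 26.4 (0.65, adjusted p = 0.0284). Leaving out that same library also brought the fNSF-HA response of DUSP4, which holds none of its reads but shares its estimate of the spread, to an adjusted p of 0.0302. With each library left out in turn, the DUSP4 difference ranged from 0.17 to 0.44 in PBS cells. In cNSF-HA cells that range was 0.26 to 0.65, and in fNSF-HA cells 0.39 to 0.70.

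DUSP1, an immediate early gene whose nuclear phosphatase acts on p38, JNK and ERK, had the highest level of the 10 per length, at 98.4 ± 1.3 RPKM (reads per kb of exon, scaled to the total of the library) in PBS cells (SD, n = 3). It lies at chr5:172768090-172771195 on the minus strand. Its span overlaps that of an antisense gene, AC022217.3, and reads from any shared exon sequence cannot be told apart. The 250 bases before its RefSeq start (chr5:172771196-172771445, minus strand, GRCh38.p14) are shown because DUSP1 alone among the members with a promoter entry held a cyclic AMP response element, TGACGTCA, found in 1.65% of the 35114 RefSeq promoters searched on both strands. Capitals mark, in order, this element (125 to 118 bases before the start), the letters CCTGCG (72 to 67 bases before) that the study names as the motif of the CD44 intracellular domain, and a TATAAA box (30 to 25 bases before).
DUSP1: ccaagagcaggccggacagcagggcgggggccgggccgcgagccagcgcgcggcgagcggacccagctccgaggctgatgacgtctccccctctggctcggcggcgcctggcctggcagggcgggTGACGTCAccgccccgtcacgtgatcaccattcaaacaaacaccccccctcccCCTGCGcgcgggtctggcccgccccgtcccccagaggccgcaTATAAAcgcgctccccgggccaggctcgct
TATAAA was found in 10.7% and CCTGCG in 20.2% of all promoters searched. A match describes the sequence and does not show that a factor binds there.

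In PBS cells DUSP1 had 4364, 4457 and 4322 normalized counts without and 6663, 5983 and 5890 with tBHP. In cNSF-HA cells it had 4603, 4394 and 4392 without and 5972, 6349 and 6718 with tBHP, and in fNSF-HA cells 4584, 4355 and 4418 without and 5613, 4965 and 6380 with tBHP. The groups did not overlap in any pre-incubation, but the 3 fNSF-HA libraries with tBHP spanned a wider range than any other group of this gene. DUSP1 rose by 0.49 (SE 0.078, adjusted p = 4.51e-05) after PBS, 0.51 (adjusted p = 3.81e-05) after cNSF-HA and 0.34 (adjusted p = 0.00197) after fNSF-HA. Once the dependence of every library on the GC content and length of transcripts had been removed, both together, the rises were 0.26, 0.21 and 0.18, and all 3 remained past the threshold. The transcript of DUSP1 is 55.1% G and C.

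DUSP10, a phosphatase with a preference for p38 and JNK (chr1:221701424-221742176, minus strand), did not pass the threshold in any response. Its normalized counts were 676, 655 and 699.6 in PBS cells and 619.6, 737 and 747 with tBHP. In cNSF-HA cells they were 719, 667 and 727 without and 598, 623 and 637 with tBHP, and in fNSF-HA cells 724, 692 and 736 without and 675, 667 and 665 with tBHP. All cNSF-HA and all fNSF-HA libraries with tBHP were below their controls, whereas the PBS groups overlapped. The log2 differences were 0.047 (95% interval -0.11 to 0.21), -0.18 (-0.35 to -0.023, adjusted p = 0.0539) and -0.10 (-0.26 to 0.062). The fNSF-HA difference passed in 1 of 30 alternative settings, the GC and length trend removed with a replicate block. The cNSF-HA difference lay close to the threshold, and it passed in 7 of 30 alternative settings. These were DESeq2 (-0.18, adjusted p = 0.0434), the GC and length trend removed (-0.17, adjusted p = 0.0268), also with a replicate block (adjusted p = 0.0187), a minimum mean of 50 (adjusted p = 0.0443), and leaving out cNSF-HA replicate 2 (-0.22, adjusted p = 0.0481), PBS + tBHP replicate 1 (adjusted p = 0.024) or fNSF-HA + tBHP replicate 2 (adjusted p = 0.0418).

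DUSP14 (chr17:37489831-37513501, plus strand), a small phosphatase without the kinase-binding domain of the classical members, varied most among the members in PBS cells with tBHP. It had 158, 131 and 153 normalized counts in PBS cells and 169, 86.0 and 89.7 with tBHP, where replicate 1 stood apart from the other two. The cNSF-HA libraries had 151, 145 and 137 without and 143, 152 and 111 with tBHP, and the fNSF-HA libraries 129.5, 145 and 133 without and 120, 98.9 and 117 with tBHP. The ranges overlapped after PBS and cNSF-HA, and did not after fNSF-HA. The log2 differences were -0.42 (95% interval -0.83 to -0.012, adjusted p = 0.0795), -0.10 (-0.51 to 0.31) and -0.28 (-0.69 to 0.13). Without PBS + tBHP replicate 1 the difference in PBS cells was -0.73 (adjusted p = 0.0006), and with the GC and length trend removed it was -0.53 (adjusted p = 0.0215). With each library left out in turn it ranged from -0.73 to -0.25.

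SPRY4, which inhibits signalling from fibroblast and epidermal growth factor receptors, had the largest rise of the 10 in PBS cells. It lies at chr5:142310427-142326455 on the minus strand. The span of SPRY4-AS1, an antisense gene, overlaps it, and reads from any shared exon sequence cannot be told apart. Its normalized counts without tBHP were 2436, 2581 and 2426 after PBS, 2464, 2297 and 2296 after cNSF-HA and 2314, 2509 and 2474 after fNSF-HA. With tBHP they were 6024, 5261 and 5380 after PBS, 5414, 5240 and 4387 after cNSF-HA and 5446, 5138 and 5442 after fNSF-HA. The lowest library with tBHP, cNSF-HA replicate 3, still lay above the highest without. SPRY4 rose by 1.16 (SE 0.077, adjusted p = 1.62e-09), or 2.23-fold, after PBS, by 1.09 (adjusted p = 4.41e-09) after cNSF-HA and by 1.14 (adjusted p = 2.43e-09) after fNSF-HA. With the GC and length trend removed the rises were 1.03, 1.04 and 1.05.

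SPRY2, a Sprouty protein that is phosphorylated on tyrosine after growth factor stimulation, rose less but with the narrowest spread of all 10 genes among libraries with tBHP. It lies at chr13:80335976-80340951 on the minus strand. The table used gives 3 RefSeq starts for it, and the 250 bases before the outermost one (chr13:80341127-80341376, minus strand, GRCh38.p14) are shown for comparison with DUSP1, since neither the TGACGTCA element nor a TATAAA box is among its letters, and the letters of the study's motif are. Capitals mark CGCAGG, which is CCTGCG on the other strand, 127 to 122 bases before the start.
SPRY2: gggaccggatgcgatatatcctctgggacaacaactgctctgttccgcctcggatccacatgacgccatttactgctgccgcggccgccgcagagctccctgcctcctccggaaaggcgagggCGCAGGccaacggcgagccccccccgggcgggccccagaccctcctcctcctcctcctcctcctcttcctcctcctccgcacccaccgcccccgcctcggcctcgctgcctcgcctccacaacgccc
Across the 12 RefSeq promoters in the table used, which covered 8 of the 10 members, CCTGCG was found in 4, from DUSP1, DUSP14 and SPRY2. The AP-1 motif TGANTCA (6.57% of all promoters) and the CArG box (1.16%) were found in none of the 12. The antioxidant response element TGACNNNGC (10.9% of all) was found in DUSP1 and SPRY4, the ETS motif CGGAAG (16.5%) in DUSP6 and TATAAA in DUSP1 and SPRED2. Of the 250 bases searched, 250 in DUSP6, 170 in SPRY4 and 60 in DUSP14 lay in GENCODE exons, so not all of the sequence was upstream of transcripts.

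The normalized counts of SPRY2 were 1410, 1451 and 1467 in PBS cells and 1954, 1910 and 1976 with tBHP. In cNSF-HA cells they were 1494, 1433 and 1471 without and 1868, 1892 and 1815 with tBHP, and in fNSF-HA cells 1442, 1528 and 1484 without and 1884, 1893 and 1919 with tBHP. All 9 libraries with tBHP lay above all 9 without. SPRY2 rose by 0.43 (SE 0.055, adjusted p = 4.15e-06), 0.34 (adjusted p = 5.54e-05) and 0.35 (adjusted p = 4.62e-05) in PBS, cNSF-HA and fNSF-HA cells. Its within-group SD was 0.034 without and 0.024 with tBHP on the log2 scale.

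SPRED2 rose and SPRED1 fell in each response, although with GC content and length corrected for SPRED1 missed the threshold in PBS and cNSF-HA cells. SPRED2 (chr2:65310851-65432637, minus strand) had 761, 771 and 777 normalized counts in PBS cells and 1261, 1292 and 1207 with tBHP. In cNSF-HA cells it had 722, 782 and 819 without and 1127, 1107 and 909 with tBHP, and in fNSF-HA cells 779.8, 787 and 731 without and 1180, 1307 and 1120 with tBHP. No group with tBHP overlapped its control, and cNSF-HA replicate 3 was the lowest of the libraries with tBHP. SPRED2 rose by 0.70 (SE 0.085, adjusted p = 2.68e-06), 0.43 (adjusted p = 0.000435) and 0.65 (adjusted p = 8.72e-06) in PBS, cNSF-HA and fNSF-HA cells.

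SPRED1 (chr15:38252326-38357249, plus strand), the gene whose loss causes Legius syndrome, was the member called lower in each response. It had 1349, 1530 and 1531 normalized counts in PBS cells and 1021, 1154 and 1000 with tBHP. In cNSF-HA cells it had 1323, 1358 and 1445 without and 1046, 1035 and 923 with tBHP, and in fNSF-HA cells 1531, 1579 and 1489 without and 1117, 1387 and 911 with tBHP. The groups did not overlap, although fNSF-HA replicate 2 with tBHP, at 1387, came close to its controls. The log2 differences were -0.47 (SE 0.11, adjusted p = 0.00189), -0.46 (adjusted p = 0.00249) and -0.45 (adjusted p = 0.00359). The transcript of SPRED1 is 38.9% G and C, the lowest of the members. With the GC and length trend removed the differences were -0.086 (adjusted p = 0.17) after PBS, -0.011 (adjusted p = 0.876) after cNSF-HA and -0.22 (adjusted p = 0.00132) after fNSF-HA. In fNSF-HA cells the difference was -0.30 (adjusted p = 0.0183) without fNSF + tBHP replicate 3, and it missed the threshold when only the groups compared were fitted (adjusted p = 0.0544). With the trend removed 6 members were again called higher and 1 lower in each response, beside 26.7% and 30.9% of all genes after PBS, 26.5% and 30% after cNSF-HA and 24.6% and 31.4% after fNSF-HA. The 1 lower was DUSP14 in PBS cells, DUSP10 in cNSF-HA cells and SPRED1 in fNSF-HA cells.

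Groups with and without tBHP did not overlap for 7 members in PBS cells, 6 higher and 1 lower, where 31.8% and 32% of all genes did so. In cNSF-HA cells the counts were 6 higher and 2 lower (31.4% and 32.3% of all genes), and in fNSF-HA cells 7 higher and 3 lower (22.6% and 26.2%). The additional genes were DUSP10 in both HA groups and DUSP4 and DUSP14 in fNSF-HA cells.

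The libraries with tBHP differed among replicates in a way that followed base composition. Among transcripts in the 10% with the highest GC content (at least 61.3%), the median deviation from the group mean was -0.52 in fNSF-HA replicate 2, 0.44 in fNSF-HA replicate 3 and 0.21 in PBS replicate 1. Among the 10% with the lowest GC content (at most 38.4%) it was 0.30, -0.25 and -0.20 in the same libraries. SPRED1 (38.9% GC) deviated by 0.31 and -0.30 and DUSP1 (55.1%) by -0.18 and 0.18 in fNSF-HA replicates 2 and 3. SPRY2 (48.3%) and DUSP5 (55.9%, the highest of the members) stayed within 0.04 of their group mean there. The part of base composition in the replicate spread of single members was not tested.

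**Figure D3:**
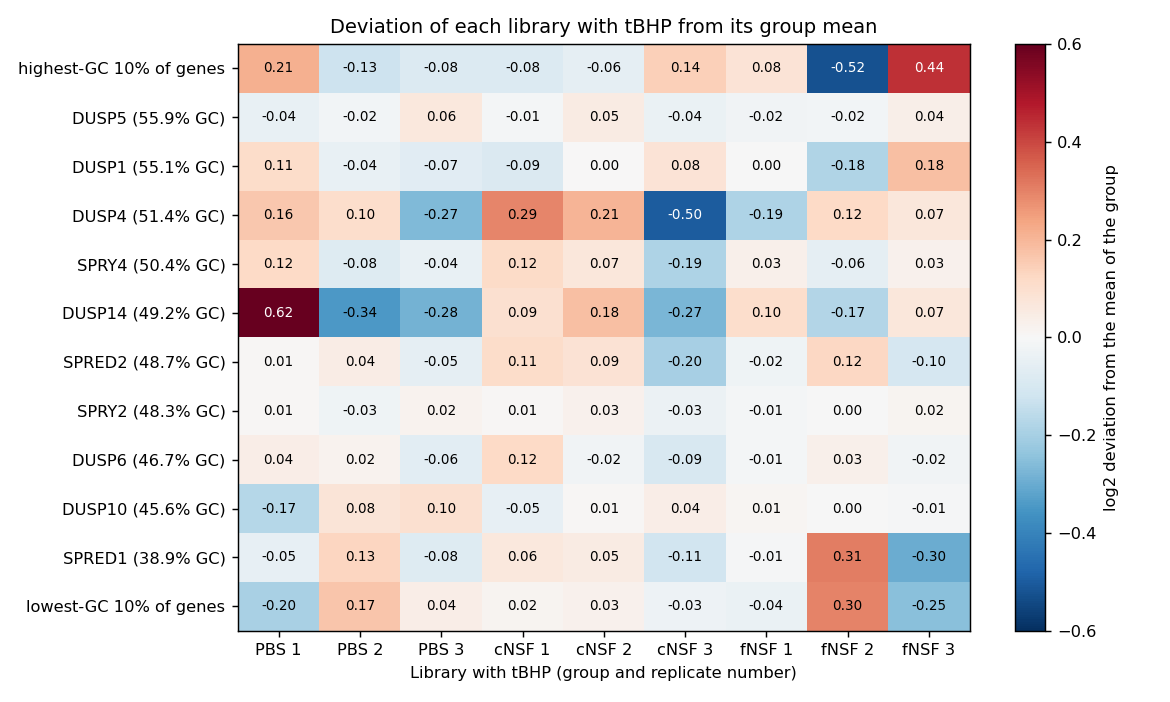
Deviation of each of the 9 libraries with tBHP from its group mean on the log2 scale, for the 10 genes ordered by transcript GC content between the medians of the 10% of genes with the highest and the lowest GC content; red is above and blue below the group mean. SPRED1 has the sign of the low-GC genes in fNSF-HA replicates 2 and 3 (0.31 and -0.30), and SPRY2 is near 0 throughout.

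Levels can be compared between genes only per length. In PBS cells the order, in RPKM, was DUSP1, SPRY2 (21.5), SPRY4 (17.1), DUSP5 (15.0), DUSP10 (10.5), SPRED1 (8.07), SPRED2 (6.77), DUSP6 (6.04), DUSP14 (2.67) and DUSP4 (0.177). The replicate ranges of neighbours in this order did not overlap. With tBHP the order in PBS cells became DUSP1 (132.7), SPRY4 (36.7), DUSP5 (29.7), SPRY2 (27.8), SPRED2 (10.6), DUSP10 (10.4), DUSP6 (9.91), SPRED1 (5.56), DUSP14 (1.99) and DUSP4 (0.207). In this order the replicate ranges of DUSP5 and SPRY2 overlapped, as did those of SPRED2 and DUSP10 and of DUSP10 and DUSP6. SPRY4 thus stood above SPRY2, and SPRED2 and DUSP6 above SPRED1. Exon lengths come from GENCODE release 29, whose isoforms need not be those used by these cells.

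The comparison the study was built for is between pre-incubations, and no member passed the threshold there. In the 3 comparisons of cells without tBHP, limma called 0 of the 10 members, with 0 at an unadjusted p under 0.05, beside 0% of all genes called and 0.921%, 0.796% and 1.51% at an unadjusted p under 0.05. The limma fit took a common spread per gene from all libraries. The median SD of all genes was 0.076 without and 0.21 with tBHP. For genes that varied more with tBHP, the spread used without tBHP was thus wider than that of those libraries. Among the members, DUSP5, DUSP6 and SPRY2 varied less with tBHP. With only the groups compared, 10.9%, 8.58% and 20.7% of all genes were under this unadjusted limit, and 0, 0 and 1 members. Like the limma fit over all libraries, edgeR and DESeq2 called 0 members, with 0 at an unadjusted p under 0.05. Of all genes, edgeR called 0 in each of these comparisons and DESeq2 0, 3 (0.0219%) and 0. The member with the smallest p was DUSP5 for cNSF-HA against PBS, at -0.09 (95% interval -0.25 to 0.061). It was DUSP10 for fNSF-HA against PBS, at 0.08 (-0.078 to 0.24), and SPRED1 for cNSF-HA against fNSF-HA, at -0.16 (-0.39 to 0.079). The last was the one comparison in which the groups did not overlap, a separation in this direction that 17.1% of all genes showed, and when only those 2 groups were fitted SPRED1 passed the threshold (-0.16, adjusted p = 0.0155), as did 7.16% of all genes (980). In the comparisons of cNSF-HA and of fNSF-HA with PBS, where 15.2% and 14% of all genes did not overlap, every member overlapped. For SPRY2 the intervals of the 3 differences stayed within 0.16 of 0, and for DUSP4 they reached 0.62.

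After tBHP, limma again called 0 members in each of the 3 comparisons, beside 0% of all genes for cNSF-HA against PBS, 0.139% (19 genes) for fNSF-HA against PBS and 0% for cNSF-HA against fNSF-HA. At an unadjusted p under 0.05 there were 2, 0 and 3 members, where 8.64%, 22.7% and 32.2% of all genes stood, so that the 3 of 10 for cNSF-HA against fNSF-HA are near the share of all genes. With edgeR 2, 0 and 1 and with DESeq2 2, 1 and 3 members were under this limit, and both tools called 0 members. When only the groups compared were fitted, 1, 0 and 0 members were under this limit, beside 3.91%, 5.03% and 7.31% of all genes. Of all genes with an adjusted p, edgeR called 0%, 0.263% and 0% and DESeq2 0.0365%, 3.82% and 9.26%. SPRED2 had the smallest p for cNSF-HA against PBS, at -0.26 (95% interval -0.44 to -0.085, adjusted p = 0.497), and for cNSF-HA against fNSF-HA, at -0.20 (-0.38 to -0.023, adjusted p = 0.121). With each library left out in turn, these SPRED2 differences ranged from -0.32 to -0.17 and from -0.26 to -0.10. DUSP10 was the other member under an unadjusted 0.05 for cNSF-HA against PBS, at -0.17 (-0.34 to -0.013). For cNSF-HA against fNSF-HA the others were DUSP1, at 0.17 (0.0094 to 0.34), and DUSP5, at -0.15 (-0.31 to -0.00038). DUSP5 had the smallest p for fNSF-HA against PBS, at 0.14 (-0.012 to 0.30, adjusted p = 0.251). The comparisons against PBS share the PBS libraries, and those of an HA group share the libraries of that group.

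Non-overlapping groups after tBHP were those of SPRY2 and SPRED2, lower after cNSF-HA than after PBS (5.01% of all genes were lower without overlap), and of DUSP5, higher after fNSF-HA than after PBS (6.86% of all genes were higher without overlap). DUSP5, DUSP6 and DUSP10 were lower after cNSF-HA than after fNSF-HA without overlap (8.29% of all genes). One library bore on these comparisons: without fNSF + tBHP replicate 3, the one that deviated most upward in high-GC transcripts, DUSP1 was called lower after fNSF-HA than after PBS (-0.22, adjusted p = 0.0266). Without it, 3 members were also called for cNSF-HA against fNSF-HA, namely SPRED2 (-0.25, adjusted p = 0.0352), DUSP1 (0.26, adjusted p = 0.00854) and SPRED1 (-0.32, adjusted p = 0.0155). At this setting 29.4% of all genes were called for fNSF-HA against PBS and 40.8% for cNSF-HA against fNSF-HA, so the 1 and 3 members of 10 do not exceed the shares of all genes.

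The differences between the tBHP responses themselves gave 0 members past the threshold in limma, edgeR and DESeq2, beside 0% of all genes in limma. At an unadjusted p under 0.05 limma found 2 members for cNSF-HA against PBS, as did edgeR and DESeq2, and 0 in both other differences, beside 4.06%, 6.88% and 3.89% of all genes in limma. SPRED2 responded by 0.27 less in cNSF-HA than in PBS cells (difference -0.27, 95% interval -0.53 to -0.018, adjusted p = 0.999) and DUSP10 differed by -0.23 (-0.46 to -0.0022, adjusted p = 0.999). For fNSF-HA against PBS the smallest p was that of DUSP5, at 0.17 (-0.049 to 0.39), and for cNSF-HA against fNSF-HA that of SPRED2, at -0.22 (-0.47 to 0.036). With each library left out in turn, the SPRED2 difference for cNSF-HA against PBS ranged from -0.33 to -0.17. That for cNSF-HA against fNSF-HA ranged from -0.27 to -0.12. For SPRY4, the interval of the difference between responses was -0.30 to 0.15 for cNSF-HA against PBS and -0.25 to 0.20 for fNSF-HA against PBS.

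**Figure D4:**
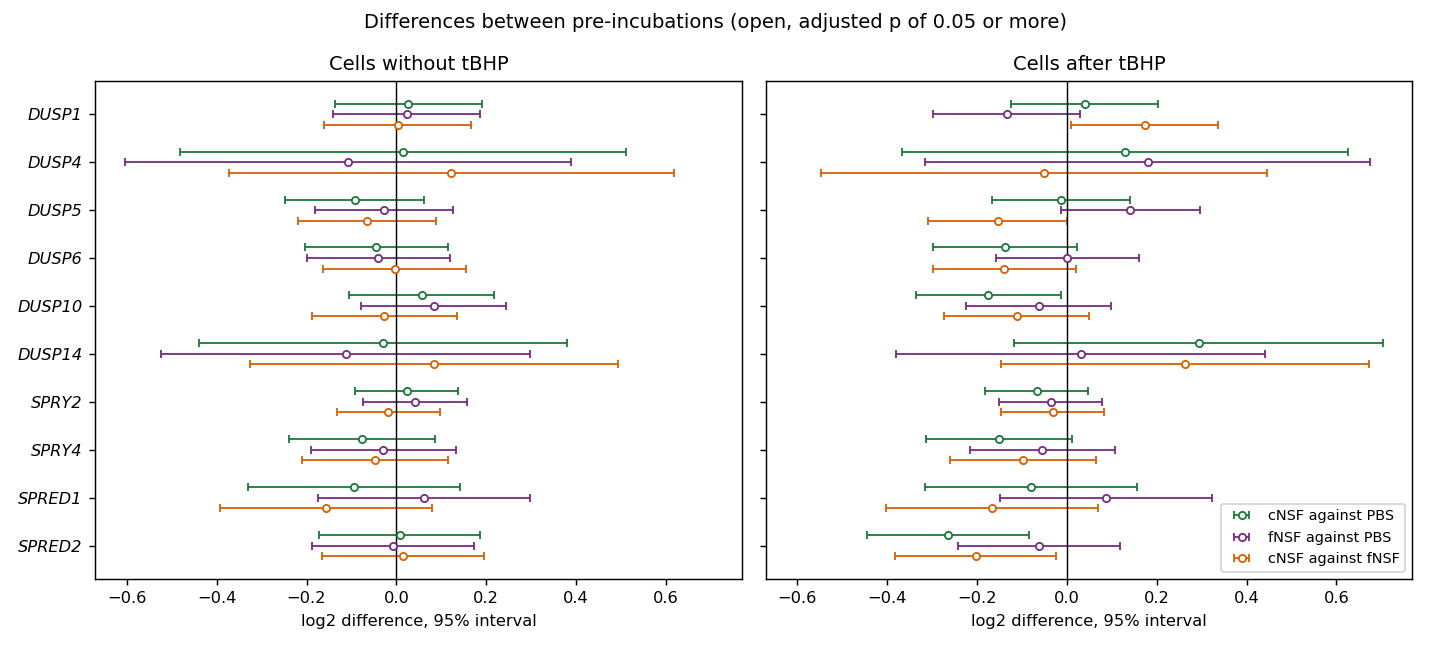
Differences between pre-incubations for each gene in cells without tBHP (left) and with tBHP (right), as log2 differences with 95% confidence intervals; open points did not pass an adjusted p of 0.05. SPRED2 with tBHP lies lowest for cNSF-HA against PBS, at -0.26, and the intervals of DUSP4 and DUSP14 are the widest.

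The relatives of the members were mostly at low levels or did not pass the threshold. Of 5 other classical phosphatase genes, 3 were tested (DUSP2, DUSP7 and DUSP16), and none was called in all 3 responses. DUSP7, an ERK phosphatase named after its values were seen, was called lower in cNSF-HA cells (-0.25, adjusted p = 0.0476) and fNSF-HA cells (-0.34, adjusted p = 0.0109), with -0.08 in PBS cells. Of SPRY1, SPRY3 and SPRED3, SPRED3 was tested, and it rose by 0.58, 0.50 and 0.42 in PBS, cNSF-HA and fNSF-HA cells. SPRY1 had normalized counts of 6.90 to 24.4 without and 1.02 to 6.83 with tBHP, under the minimum mean. With no filter its difference was -2.65 (adjusted p = 0.000184) after PBS, -2.91 (adjusted p = 7.29e-05) after cNSF-HA and -0.84 (adjusted p = 0.272) after fNSF-HA, a direction opposite to that of SPRY2 and SPRY4.

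Upstream of the inhibitors, 4 of 17 genes of the ERK cascade rose in all 3 responses and 0 fell in all 3, beside 14.6% and 17.9% of all genes tested. Taken singly, the response after PBS had 6 higher and 3 lower (all genes 24.2% and 26.9%), that after cNSF-HA 7 and 3 (24% and 26.8%) and that after fNSF-HA 4 and 0 (19.2% and 22.7%). The largest were KSR1, a scaffold of RAF, MEK and ERK, at 1.18, 1.01 and 1.03, SHC1, a receptor adaptor, at 0.64, 0.55 and 0.51, and MAP2K1, which encodes a MEK, at 0.35, 0.30 and 0.36. Of 14 genes of the JNK and p38 cascades, 5 fell and 1 rose in all 3 responses, beside 17.9% and 14.6% of all genes. Singly, against the same shares of all genes as for the ERK cascade, 3 were higher and 5 lower after PBS, 3 and 5 after cNSF-HA and 1 and 5 after fNSF-HA. Those that fell included MAP2K6 (-0.77, -1.51 and -1.34, with group means of 8.93 to 27.8 normalized counts) and MAP2K3 (-0.49, -0.39 and -0.64), which encode kinases that activate p38, and MAPK8, which encodes a JNK (-0.68, -0.46 and -0.37).

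Of 12 transcripts commonly read as ERK output, 6 rose and 1 fell in all 3 responses, beside 14.6% and 17.9% of all genes. After PBS 10 were higher and 1 lower (all genes 24.2% and 26.9%), after cNSF-HA 10 and 2 (24% and 26.8%), and after fNSF-HA 6 and 1 (19.2% and 22.7%). FOS, an AP-1 subunit, rose by 1.71, 1.80 and 1.72 to group means of 86.2 to 99.7 normalized counts, ETV5, an ETS factor, by 1.47, 1.33 and 1.37 and PHLDA1 by 1.14, 1.08 and 1.03. Of 11 other negative regulators of RAS and ERK signalling (SPRED3 among them), 3 rose and 2 fell in all 3 responses, beside the same 14.6% and 17.9%. Singly, 3 rose and 2 fell after PBS, 4 and 5 after cNSF-HA and 3 and 2 after fNSF-HA. ERRFI1, a feedback inhibitor of the EGF receptor, rose by 1.03, 0.93 and 1.23, whereas the RAS GTPase-activating genes RASA2 (-0.87, -0.97 and -0.58) and RASAL2 (-0.67, -0.72 and -0.54) fell. Of 6 receptor tyrosine kinases, IGF1R (0.73, 0.57 and 0.63) and PDGFRB (0.60, 0.43 and 0.38) rose and MET (-0.88, -0.97 and -0.75) fell in all 3 responses, with 2 higher and 1 lower in PBS and fNSF-HA cells and 2 and 3 in cNSF-HA cells, against the shares of all genes given for the ERK output. No gene of these pathway lists was called by limma between pre-incubations.

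**Figure D5:**
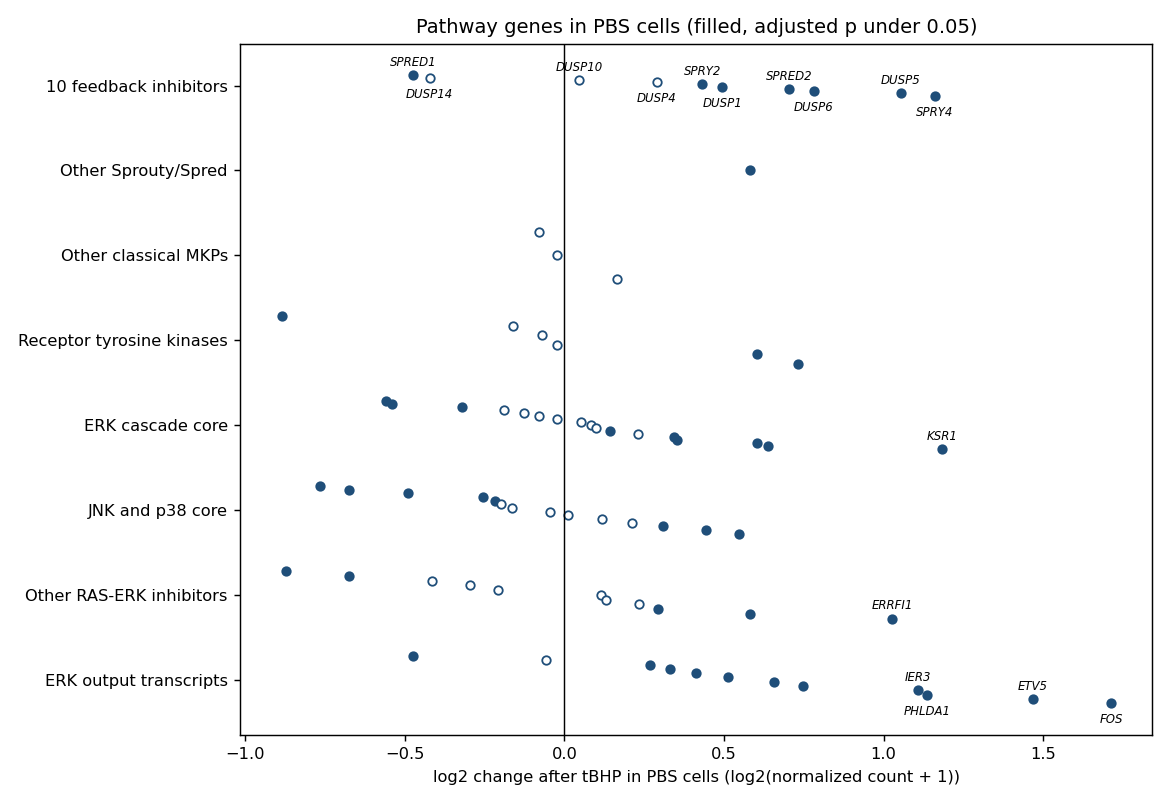
Log2 difference between PBS cells with and without tBHP for the 10 feedback inhibitors and the genes of the 7 pathway lists, 1 row per list; filled points had an adjusted p under 0.05 and genes beyond 1 are named. SPRY4 and DUSP5 lie in the range of KSR1, ERRFI1 and PHLDA1, below ETV5 (1.47) and FOS (1.71).

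The genes whose pattern over the 18 libraries was most like that of each member are given as a description, since the points share the split between cells with and without tBHP. For SPRY4 they were FRMD4A (Pearson r = 0.996) and SLC6A6 (0.995), for DUSP1 KCNG1 (0.994) and HDAC5 (0.993), for DUSP5 CDK5RAP2 and AKR1C1 (0.993 each) and for SPRY2 GRB10 and SH2B3 (0.992 each). DUSP6 (0.989) and SPRED2 (0.985) had the same nearest gene, DPYSL2, followed by PHF21A (0.987) and FKBP9 (0.984). SPRED1 was closest to QKI (0.982) and CDK6 (0.981). The 3 members that did not pass the threshold had less close neighbours: DPH2 (0.862) and DKK3 (0.817) for DUSP14, AGAP1 (0.843) and MAML3 (0.837) for DUSP4, and GLOD4 (0.768) and CHEK1 (0.758) for DUSP10.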

How the data were processed

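The authors made libraries from polyadenylated RNA with the TruSeq RNA V2 kit and sequenced single-end reads of 100 nt. The submitters' processing notes name Trimmomatic 0.32, STAR 2.5.2b, featureCounts, Subread 1.5.0-p3, DESeq2 and the genome build GRCh38.p7, without their roles; the annotation is not given in the sources used here. The deposited values are a normalized signal per gene and library, the reads divided by the DESeq2 size factor, and 100% were whole multiples of 1 read within a tolerance of 0.01 reads (largest deviation 5.65e-05 reads), so reads were recovered (20261103 to 26287660 per library). Beside these values the authors deposited, for every gene, their p-value and q-value and a score that ranks the p-value, and none was used.

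Groups were taken from the labels. The 9 comparisons between groups and the 3 differences of responses were fitted by limma 3.58.1 (R 4.3.3) on log2(value + 1), with 1 coefficient per group over the 18 libraries, a mean-variance trend, two-sided tests and Benjamini-Hochberg adjustment over the 13686 genes with a mean of at least 10. A gene was called at an adjusted p under 0.05. On the recovered reads edgeR 4.0.16 and DESeq2 1.42.0 were alternatives. Scripts were tested on simulated data.

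The 10 members and the pathway lists were chosen with earlier results of these data known. All members are named, and of each list the 3 genes called in all 3 responses with the largest mean change. Between pre-incubations the member with the smallest p is named, and likeness of pattern was the Pearson correlation of log2 values among genes with a mean of at least 100. Gene positions, exon lengths and GC content come from GENCODE release 29 and promoters from RefSeq (GRCh38.p14). The alternatives tried were pseudocounts of 0.1 and 5, a minimum mean of 50 or no filter, quantile and TMM scaling, only the groups compared, a replicate block, removal of the GC and length trend (natural splines with 5 degrees of freedom, 12503 genes) and each library left out in turn.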

Additional observations from a re-analysis of the deposited data

How the results depend on the processing

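The rises of SPRY4, DUSP5, DUSP6, SPRED2, DUSP1 and SPRY2 kept their direction and remained past the threshold in all 3 responses under each of the 12 alternatives with all libraries and with each of the 18 libraries left out. The number of members called stayed between 6 and 8 of 10 in each response, while the share of all genes called ranged from 21.8% to 58.3% in PBS, 21.1% to 57.8% in cNSF-HA and 16.4% to 56.7% in fNSF-HA cells, each lowest with no filter. The call of SPRED1 was lost in PBS and cNSF-HA cells with the GC and length trend removed, and in fNSF-HA cells when only the groups compared were fitted. With a library left out, the response of DUSP10 in PBS cells ranged from -0.0017 (without PBS + tBHP replicate 3) to 0.13, and that of DUSP14 in cNSF-HA cells from -0.19 to 0.038 (without cNSF + tBHP replicate 3), so that both changed sign. The cause was not tested.

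Between pre-incubations, 1 member (SPRED1) was called for cNSF-HA against fNSF-HA without tBHP when only the groups compared were fitted. With libraries left out in turn the count ranged from 0 to 1 for fNSF-HA against PBS after tBHP and from 0 to 3 for cNSF-HA against fNSF-HA after tBHP, both maxima without fNSF + tBHP replicate 3.

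Counts over all genes were less stable between pre-incubations. For fNSF-HA against PBS after tBHP the 19 genes became 3 with no filter, 30 with a minimum mean of 50, 40 with TMM scaling, 36 with edgeR, 442 with DESeq2, 0 with only the groups compared, 35 with the GC and length trend removed and 0 to 4024 with a library left out. For cNSF-HA against fNSF-HA after tBHP the count of 0 became 1 with a pseudocount of 0.1, 923 with DESeq2, 1 with the trend removed and 0 to 5586 with a library left out. For cNSF-HA against PBS after tBHP it became 5 with DESeq2, 2 with the trend removed and 0 to 1 with a library left out. Without tBHP it became 4 (cNSF-HA against PBS, no filter), 5, 3 and 21 (fNSF-HA against PBS, no filter, DESeq2 and only the groups compared) and 980 (cNSF-HA against fNSF-HA, only the groups compared). For the difference of responses between fNSF-HA and PBS it became 6 with DESeq2 and 0 to 9 with a library left out.

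The labels name no pairing by replicate number. Of 45 pairs of same-numbered libraries 7 had a correlation of deviations over 0.1 (median 0.034, highest 0.33). With 3 replicates per group this does not settle whether the samples were paired. A replicate block left 7 members called in each tBHP response, beside 52.8%, 52.4% and 43.4% of all genes, and 0 between pre-incubations, and moved the genes called for fNSF-HA against PBS after tBHP from 19 to 61 (60 with the trend removed as well). DUSP4 had the fewest reads of the members (19.7 to 46.4 normalized counts), and its counting error was not separated from its other spread.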
